A study of Danio rerio with 20 samples.

Results

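The Hox cluster genes of zebrafish larvae were followed across 5 exposure groups. Members were the protein-coding gene models whose symbol is a Hox gene of cluster A, B, C or D with a paralogue number and a copy letter. This rule found 48 genes among 38718 gene models in the table. The series held 20 poly(A) RNA libraries, with 4 in each group. The drugs were citalopram (10 or 1000 µg/L), an antidepressant that blocks serotonin uptake, and ifosfamide (1 or 100 µg/L), a DNA-alkylating chemotherapy agent. The last group is named ERM. The labels do not write that name out and give its treatment entry a concentration without a compound, so it was read as the reference without either drug. Each treatment had 5 beakers of larvae, of which 4 were sequenced, and each library was taken as a separate beaker. Larval age, strain, tissue and exposure length are not given in the labels used here.

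Hox proteins are homeodomain transcription factors that give cells their position along the head-to-tail axis. The genes lie side by side in clusters, and their order on the chromosome follows the order in which they are used along the body. Low paralogue numbers act in the hindbrain and pharyngeal arches, middle numbers in the anterior trunk, and high numbers in the posterior trunk, the tail and the fins. Teleosts kept extra clusters from a genome duplication, so many zebrafish Hox genes have copies marked a and b. Pbx and Meis proteins bind DNA with them, and Cdx proteins and retinoic acid act upstream of them.

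The members lay in 7 clusters on GRCz11, each on 1 chromosome and with all its members on 1 strand. The hoxba cluster (chromosome 3, 23654233 to 23771945) held 11 members, as did the hoxca cluster (chromosome 23, 35969228 to 36190988). The hoxda cluster (chromosome 9, 1937049 to 1990323, minus strand) held 7, and the hoxaa cluster (chromosome 19, 19729506 to 19787752) held 6. The hoxab cluster (chromosome 16, 20895904 to 20929183) held 5. The hoxbb cluster (chromosome 12, 27117609 to 27142834) and the hoxcb cluster (chromosome 11, 2156430 to 2204754) held 4 each.

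Levels are given in FPKM as deposited, a scale that corrects fragments for gene length and sequencing depth. Of the 48 members, 38 had a mean of at least 1 FPKM over the 20 libraries and entered the tests, with means of 1.11 to 10.6 FPKM. Their median of 4.94 FPKM was close to the 4.42 FPKM of all 19723 gene models that passed the same filter. The other 10 had means of 0.217 to 0.986 FPKM. Nearest to the limit were hoxa9a at 1.11 FPKM above it and hoxc12b at 0.986 FPKM below it. Reads recovered from the FPKM values gave library depths of 10699832 to 17311011 reads. A tested Hox value rested on 11 to 786 reads with a median of 84, and a value of a member below the filter on 0 to 66 reads with a median of 11. Of 960 Hox values, 4 were 0. They were hoxb6b in ERM library C and citalopram 10 µg/L libraries B and C, and hoxb8b in ifosfamide 100 µg/L library C. A count of 0 there allows up to 0.180 to 0.215 FPKM (3 reads in that library), for counting error only.

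The Hox RNA of these larvae came mainly from the hoxba and hoxca clusters. Summed over members, the mean level was 63.6 FPKM for hoxba and 53.9 FPKM for hoxca, which are 33.1% and 28.1% of the whole Hox sum. The hoxda cluster gave 15.2% of it, hoxab 11.1%, hoxaa 8.30%, hoxcb 3.61% and hoxbb 0.573%. All 4 hoxbb genes, hoxb1b, hoxb5b, hoxb6b and hoxb8b, stayed below the filter, and hoxb1b was the highest of them at 0.359 FPKM. In hoxcb, hoxc6b reached 4.79 FPKM while the other members of the cluster stayed below 1 FPKM.

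The gene with the highest level was hoxd3a, of the group that patterns the upper neck and pharyngeal region in mouse, at a mean of 10.6 FPKM. It was followed by hoxb8a at 9.60 FPKM and hoxb5a at 9.22 FPKM. The models of hoxd3a and hoxb5a overlap other members, as described below. In zebrafish, hoxb8a takes part in the migration of the lateral line primordium, and the hoxb5 genes take part in placing the pectoral fin. The order of these 3 neighbours was not fixed, because their ranges over libraries overlapped (8.60 to 12.8 FPKM for hoxd3a, 6.44 to 13.8 FPKM for hoxb8a, 6.46 to 12.3 FPKM for hoxb5a). Elsewhere the leading genes were hoxc6a in hoxca at 7.63 FPKM, hoxa3a in hoxaa at 6.88 FPKM and hoxa10b in hoxab at 6.15 FPKM. The lowest member of all was hoxb6b at 0.217 FPKM.

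By paralogue position, the summed mean level was lowest at position 1, where 4 genes gave 3.78 FPKM. It was highest at position 3, where 4 genes gave 29.9 FPKM. All 4 genes at position 3 have long models that span other members, so this sum is uncertain. The sums cover different numbers of genes, from 1 at position 7 to 6 at position 13. The position 1 genes act early in hindbrain segments, and hoxb1a, which specifies a segment of facial motor neurons in zebrafish, had 0.542 FPKM. Position 2, which is hoxa2b and hoxb2a, genes of the second pharyngeal arch, gave 8.73 FPKM. Position 4 gave 15.4 FPKM. Positions 5 and 6 gave 19.0 and 18.0 FPKM, and position 8 gave 16.4 FPKM. Position 7 holds only hoxb7a and gave 4.83 FPKM. Among the posterior genes the sum was 22.4 FPKM at position 9, 17.8 FPKM at position 10, 12.1 FPKM at position 11, 9.19 FPKM at position 12 and 14.4 FPKM at position 13. Position 13 genes, which act in the fin and the hind end of the body, ranged from 0.420 FPKM for hoxc13b to 4.34 FPKM for hoxc13a.

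**Figure D1:**
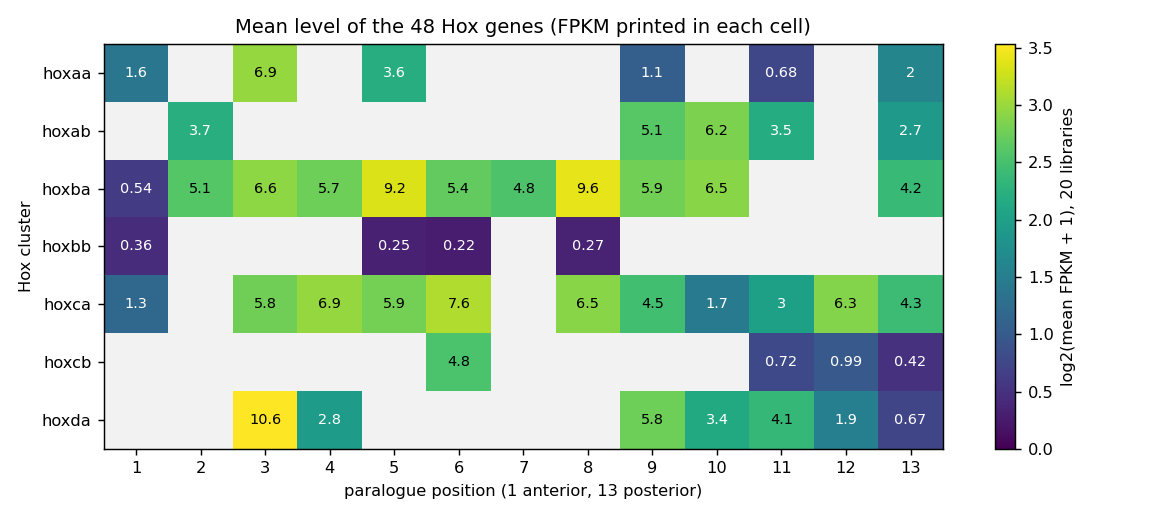
Mean FPKM over 20 libraries for each of the 48 Hox genes, with clusters as rows, paralogue positions as columns and colour as log2(mean FPKM + 1). Empty cells have no member, the hoxbb row stays at or below 0.36 FPKM, and the brightest cells are hoxd3a, hoxb8a and hoxb5a.

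Gene models in the clusters overlap on the chromosome, which limits how exactly reads can be given to single genes. Of the 48 members, 20 share part of their span, introns included, with another member, and 25 share it with a gene model on the opposite strand. The library kit kept strand, but the strand setting of the counting is not given in the sources used here. The long models hoxb3a, hoxc3a, hoxa3a, hoxd3a and hoxc10a cover other members, so their levels and those of the genes inside them are uncertain. Among the genes described below, hoxd11a, hoxb7a, hoxb8a, hoxb9a, hoxb10a and hoxd9a overlap no other gene model. By contrast hoxb5a and hoxb2a overlap hoxb3a, hoxc8a and hoxc4a overlap hoxc3a, hoxd4a overlaps hoxd3a, and hoxa11b overlaps tax1bp1b on the other strand.

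Duplicate copies had unequal levels per length of gene model. For 11 pairs both the a and the b copy were in the table, and the a copy had the higher mean in 8 of them. In 9 pairs the same copy was higher in each of the 20 libraries. The gap was widest in the B clusters, where the mean of hoxb5a was 36.4 times that of hoxb5b, hoxb8a 35.5 times that of hoxb8b and hoxb6a 24.9 times that of hoxb6b. These ratios rest on b copies below the filter and differed between groups. For hoxb5 the ratio of group means was 17.8 at citalopram 1000 µg/L and 40.25 to 57.89 in the other groups, for hoxb8 it ran from 23.8 to 46.4, and for hoxb6 from 17.85 to 38.04, so the order of the 3 pairs was not fixed. In the C clusters the ratio of the a to the b mean was 10.4 for hoxc13, 6.41 for hoxc12, 4.17 for hoxc11 and 1.59 for hoxc6. The b gene models of these pairs are longer, at 4736 against 1162 bases for hoxc13 and 2426 against 825 for hoxc12. For hoxc11 the lengths are 4372 against 1971 bases, and for hoxc6 1507 against 757. Recovered reads differed less, with 13 to 40 for hoxc13b and 43 to 83 for hoxc13a. For hoxc6b they were 52 to 136, and for hoxc6a 48 to 101.

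The A clusters went the other way. The mean of hoxa9b was 4.65 times that of hoxa9a, with 2.93 to 8.52 FPKM against 0.484 to 2.07 FPKM, so no library of one reached the other. The mean of hoxa11b was 5.22 times that of hoxa11a, from 3.82 times at citalopram 1000 µg/L to 9.77 times in ERM. The Hox11 genes pattern the forearm in mouse. Between the hoxa13 copies, which act in the fin fold and fin rays of zebrafish, hoxa13b was higher in 17 of 20 libraries, and the ranges overlapped (1.55 to 4.05 FPKM for hoxa13b and 1.18 to 3.50 FPKM for hoxa13a). Levels of hoxb1a exceeded those of hoxb1b in 13 libraries and fell short of them in 7. These are levels per length within libraries, described with no test.

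**Figure D2:**
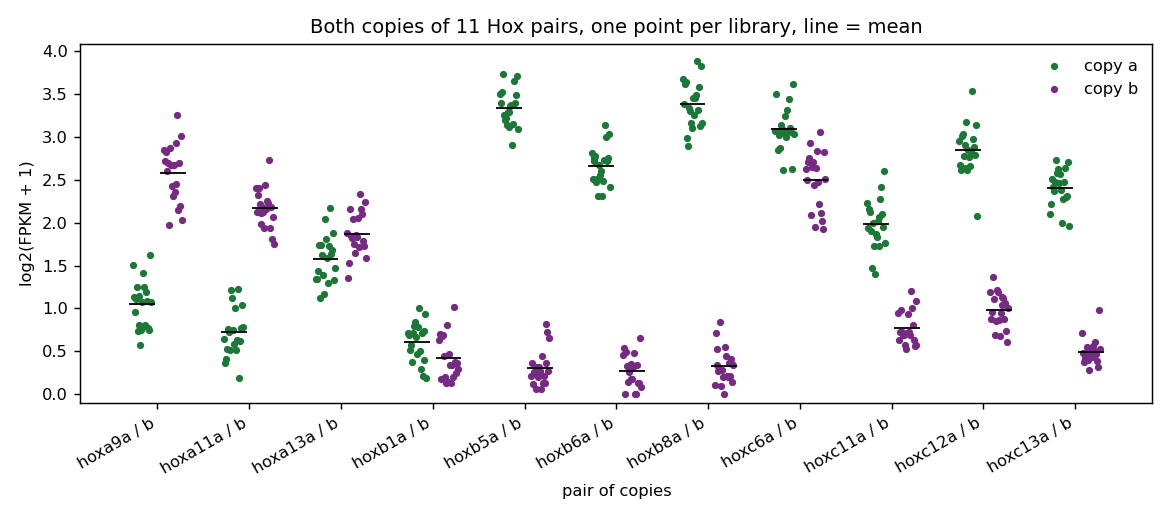
Level of both copies of 11 Hox pairs, as log2(FPKM + 1), with 1 point per library (20 per gene) and a line at the mean. The a copy has the higher mean in the B and C pairs. Its points all lie above those of the b copy for hoxb5, hoxb6, hoxb8, hoxc11, hoxc12 and hoxc13. The b copy lies above for hoxa9 and hoxa11, and the points overlap for hoxa13, hoxb1 and hoxc6.

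Across the 5 groups, group means of a tested Hox gene differed little. The highest group mean was 1.04 times the lowest for hoxa3a, 1.34 times at the median over the 38 genes and 1.98 times for hoxb7a. The value of hoxb7a rested on citalopram 1000 µg/L library C, without which it was 1.55 times and the widest was 1.72 times, for hoxb10a. ERM had the highest mean of the 5 groups in 15 of the 38 genes and the lowest in 3. Citalopram 10 µg/L had the highest mean in 16 and the lowest in 2. Ifosfamide 100 µg/L had the highest mean in 0 and the lowest in 14, and for ifosfamide 1 µg/L the counts were 3 and 11. For citalopram 1000 µg/L they were 4 and 8. The same counts were not made over all gene models, so whether they are particular to Hox genes was not tested. The median residual SD of the tested Hox genes on the log2(FPKM + 1) scale was 0.274, against 0.301 over all tested gene models.

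No tested Hox gene passed an adjusted p of 0.05 in any of 6 comparisons between groups, nor in an F-test over the 4 drug groups against ERM. The tests were limma's moderated tests on log2(FPKM + 1) with Benjamini-Hochberg adjustment over all tested gene models, two-sided. A change is a difference in mean log2(FPKM + 1) and understates the change of genes near the pseudocount of 1. Over all gene models the F-test called 0% at the adjusted p, and 5.77% had an unadjusted p under 0.05, against 1 of 38 Hox genes (2.63%). That gene was hoxc8a (unadjusted p = 0.0423, adjusted p = 0.860 by limma). In RNA pooled over many cells, fewer cells that express a gene and less RNA per cell cannot be told apart.

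Citalopram at 1000 µg/L left all 38 tested Hox genes without a call against ERM, where 0.0304% of all gene models passed the adjusted p. At an unadjusted p under 0.05 there were 3 Hox genes (7.89%), all lower with the drug, beside 7.27% of all gene models in either direction and 4.17% lower. They were hoxc8a, hoxd11a and hoxa11b. Libraries of the drug group all lay below all ERM libraries for 2 Hox genes (5.26%), beside 2.27% of all gene models. For 0 Hox genes they all lay above, beside 1.4% of all gene models.

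For hoxc8a, which in mouse sets motor neuron identity in the brachial cord, the ERM libraries A, B, C and E had 7.31, 7.51, 7.05 and 8.41 FPKM. Citalopram 1000 µg/L libraries A to D had 6.38, 5.67, 4.45 and 4.78 FPKM. Each drug library was below each ERM library, and the means were 5.32 ± 0.875 FPKM with the drug against 7.57 ± 0.590 FPKM in ERM (SD, n = 4 each). The log2 change was -0.45 ± 0.15 (SE, 95% interval -0.75 to -0.14), with adjusted p = 0.391 by limma.

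For hoxd11a, a posterior gene whose mouse relatives pattern the forearm, ERM libraries had 4.96, 4.61, 5.17 and 5.23 FPKM. The citalopram 1000 µg/L libraries had 4.07, 2.83, 3.66 and 2.19 FPKM, again all below ERM. Its log2 change was -0.54 ± 0.19 (SE, 95% interval -0.94 to -0.14, adjusted p = 0.460 by limma). In hoxa11b the groups overlapped, with 3.34 to 4.29 FPKM in ERM and 2.37 to 3.53 FPKM with the drug, and the log2 change was -0.36 ± 0.16 (SE, adjusted p = 0.652 by limma). The positive changes closest to the threshold were 0.24 for hoxc4a, 0.20 for hoxc10a and 0.15 for hoxd12a on the log2 scale, and each had overlapping groups. Without citalopram 1000 µg/L library C the changes of hoxc10a and hoxd12a turned negative, to -0.11 and -0.05.

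**Figure D3:**
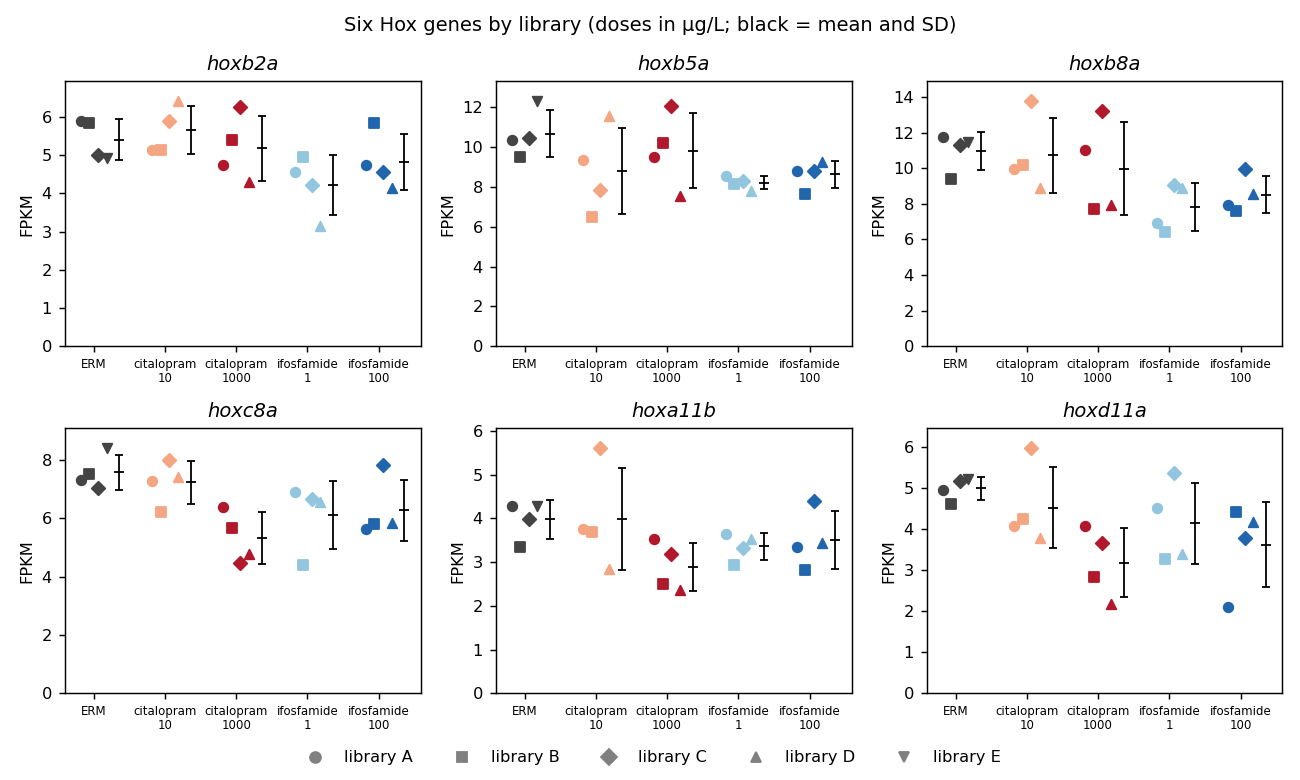
FPKM of 6 Hox genes in each of the 20 libraries, by group, with marker shape for the library letter and black bars for the mean and SD (n = 4). The 6 genes were picked for an unadjusted p under 0.05 by limma against ERM in any drug group. For hoxc8a and hoxd11a the citalopram 1000 µg/L libraries lie below the ERM libraries. For hoxb5a, hoxb8a and hoxc8a the ifosfamide 1 µg/L libraries do, and for hoxb5a and hoxd11a those of ifosfamide 100 µg/L.

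Of the 38 tested genes, 26 had a negative change at citalopram 1000 µg/L, and the median change was -0.12 on the log2 scale. Over all tested gene models 49.9% were negative and the median was 0.00027. Single libraries of the drug group moved this count. Without library C it was 35 of 38 with a median of -0.19, and without library D it was 20 of 38 with a median of -0.02. Scaled to total reads in place of the deposited size factors, 32 of 38 Hox genes and 59.6% of all gene models were negative. No Hox gene was called without library C, where the changes were -0.38 for hoxc8a, -0.60 for hoxd11a and -0.40 for hoxa11b. Library C stood apart from the others of its group. It had the highest value of the group in 25 of 38 Hox genes, 14 of them among the 18 at positions 9 to 13. Such ranks were not counted over all gene models. Values above 0 were found for 25952 gene models in library C and for 28913 to 30110 in every other library. Its summed posterior level (positions 9 to 13) was 105 FPKM, while library D of the group had the lowest such sum of all libraries at 52.2 FPKM. Libraries also differed in a length slope, the change in log2 level relative to each gene's mean over libraries per doubling of gene length. This slope was -0.151 in library C and -0.088 to 0.074 in every other library. The -0.088 was that of library C of citalopram 10 µg/L. Beyond the count of calls given below, the part of gene length in the Hox values was not tested.

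The summed level of skeletal muscle markers was also highest in library C and lowest in library D of citalopram 1000 µg/L. All 11 markers were found, and none was at 0 throughout. The sum was 78350 FPKM in library C and 15911 FPKM in library D of citalopram 1000 µg/L, against 23898 to 31916 FPKM in ERM. A few abundant genes carry this sum, and in library C pvalb1, a parvalbumin, made up 60.2% of it and actc1b, an actin, 23.7%. Single markers did not all follow it. In library C, 7 markers lay above all ERM libraries, while myhz2, ttn.1, ttn.2 and neb lay below all of them, as these 4 did in each library of the drug group. The level of ttn.1, the giant muscle protein titin, was 2.13 FPKM in library C, 5.14 to 11.1 FPKM in the others of its group and 19.7 to 27.5 FPKM in ERM. The part of muscle RNA in the Hox values was not tested. Of the 10 muscle markers tested, 8 had a negative change at citalopram 1000 µg/L and 1 was called (myhz2, a fast myosin heavy chain, log2 change -1.03, adjusted p = 0.0164 by limma). Spinal and hindbrain neuron markers, of which 14 of 15 were found and mnx1 was at 0 throughout, summed to 428 to 624 FPKM with the drug and 404 to 473 FPKM in ERM. Library C was also the highest of its group in the neuron markers and in the summed levels of blood markers (718 FPKM), gut and swim bladder markers (541 FPKM) and fin markers (165 FPKM). For kidney markers library D was higher, at 38.3 FPKM against 35.9 FPKM. Among the other gene lists, described below, library C was the highest in cdx and ParaHox genes (23.8 FPKM). It was the lowest in Hox cofactors (186 FPKM) and in hindbrain and axial patterning genes (30.8 FPKM), and neither in the rest.

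Among the members below the filter, hoxb5b was picked after its values were seen. Its level in citalopram 1000 µg/L libraries A to D was 0.764, 0.659, 0.212 and 0.574 FPKM, on 3 to 21 reads. ERM libraries had 0.163, 0.286, 0.0879 and 0.200 FPKM, on 2 to 6 reads, and 3 of the drug libraries were above all of ERM. In the model without the filter its log2 change was 0.38 ± 0.10 (SE, unadjusted p = 0.00200, adjusted p = 0.347 by limma). Its copy hoxb5a changed by -0.12 ± 0.15 (SE, adjusted p = 0.970 by limma).

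Citalopram at 10 µg/L gave 0 Hox calls against ERM, beside 0.0101% of all gene models at the adjusted p. At an unadjusted p under 0.05 the counts were 0 of 38 Hox genes and 2.42% of all gene models, with 1.16% lower. No Hox gene had groups that did not overlap, beside 1.13% of gene models with all drug libraries lower and 1.38% with all higher. Negative and positive changes were equal in number, 19 each, and the Hox median was 0.0020. The changes closest to the threshold were -0.45 for hoxa5a, -0.27 for hoxb5a and -0.30 for hoxc5a among negative ones, and 0.35 for hoxa13b, 0.30 for hoxd12a and 0.27 for hoxd9a among positive ones. Their adjusted p was 0.99992 by limma in each case.

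ERM itself varied for hoxa5a, with 2.27 to 8.13 FPKM over its 4 libraries, against 2.22 to 3.36 FPKM in citalopram 10 µg/L. In mouse Hox5 genes act in lung and in motor neurons of the diaphragm. Library C of citalopram 10 µg/L was the highest of its group in 23 of 38 Hox genes and the lowest in 0. These ranks, too, were not counted over all gene models. The posterior sum of this library was 108 FPKM. The muscle markers summed to 33971 FPKM in it and to 25358 to 34105 FPKM over the group.

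Between the doses of citalopram, 0 Hox genes were called at 1000 µg/L against 10 µg/L, and 0% of all gene models were. At an unadjusted p under 0.05 there were 4 Hox genes (10.5%), all lower at the high dose, beside 3.67% of all gene models in either direction and 2.18% lower. They were hoxc8a at -0.39, hoxd9a at -0.43, hoxd11a at -0.41 and hoxa11b at -0.34 on the log2 scale, each with adjusted p = 0.99993 by limma. No Hox gene had groups that did not overlap, beside 0.826% of gene models with all libraries lower at the high dose and 0.451% with all higher. For hoxc8a the values were 7.28, 6.21, 8.0 and 7.41 FPKM at 10 µg/L, above all but the 6.38 FPKM of library A at 1000 µg/L.

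Positions 9 to 13 leaned to lower values at the high dose, with 17 of 18 tested genes negative and a median of -0.15. The count was 13 of 18, with a median of -0.06, both without citalopram 10 µg/L library C and without citalopram 1000 µg/L library D. The negative counts were 8 of 11 at positions 1 to 4 and 5 of 9 at positions 5 to 8. For comparison, 49.8% of all tested gene models were negative. The positive changes closest to the threshold were 0.15 for hoxb5a, 0.22 for hoxa5a and 0.17 for hoxc4a. The citalopram comparisons against ERM and between doses share libraries, so their values are not independent of each other.

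Ifosfamide at 1 µg/L gave 0 Hox calls against ERM, and 0% of all gene models passed the adjusted p. At an unadjusted p under 0.05 there were 3 Hox genes (7.89%), all lower with the drug, beside 4.80% of all gene models in either direction and 2.96% lower. They were hoxb8a, hoxb5a and hoxb2a, all of the hoxba cluster. For 3 Hox genes (7.89%), hoxb8a, hoxb5a and hoxc8a, all drug libraries lay below all ERM libraries, beside 4.80% of all gene models. No Hox gene was higher in all drug libraries, beside 2.19% of gene models.

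For hoxb8a the ERM libraries had 11.7, 9.42, 11.3 and 11.5 FPKM, and the ifosfamide 1 µg/L libraries A to D had 6.93, 6.44, 9.07 and 8.89 FPKM. The highest drug library was just below the lowest ERM library, with means of 7.83 ± 1.34 FPKM with the drug against 10.98 ± 1.06 FPKM in ERM (SD, n = 4 each). Its log2 change was -0.45 ± 0.17 (SE, 95% interval -0.80 to -0.09, adjusted p = 0.787 by limma).

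For hoxb5a the ERM libraries had 10.3, 9.52, 10.5 and 12.3 FPKM, and the drug libraries had 8.56, 8.16, 8.28 and 7.77 FPKM. The drug libraries were close together and all below ERM. The log2 change was -0.34 ± 0.15 (SE, adjusted p = 0.787 by limma). For hoxb2a, which acts in the second pharyngeal arch and hindbrain, the groups overlapped at 4.91 to 5.90 FPKM in ERM and 3.14 to 4.95 FPKM with the drug, with a log2 change of -0.31 ± 0.14 (SE, adjusted p = 0.787 by limma). The positive changes closest to the threshold were 0.23 for hoxc13a, 0.19 for hoxc1a and 0.14 for hoxa13b.

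Ifosfamide at 100 µg/L likewise gave 0 Hox calls, and 0% of all gene models passed the adjusted p. At an unadjusted p under 0.05 there was 1 Hox gene (2.63%), hoxd11a, beside 3.27% of all gene models in either direction and 1.79% lower. Groups that did not overlap were more frequent, with 5 Hox genes (13.2%) lower in all drug libraries, beside 2.54% of all gene models. They were hoxd11a, hoxb5a, hoxb7a, hoxb9a and hoxb10a, so 4 of them lie in the hoxba cluster. No Hox gene was higher in all drug libraries, beside 1.76% of gene models.

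For hoxd11a the ifosfamide 100 µg/L libraries A to D had 2.11, 4.41, 3.78 and 4.18 FPKM, below the 4.61 to 5.23 FPKM of ERM. Library A was the lowest. The log2 change was -0.41 ± 0.19 (SE, 95% interval -0.80 to -0.01, adjusted p = 0.920 by limma). In hoxb5a the libraries had 8.81, 7.65, 8.77 and 9.27 FPKM, and the change was -0.27 ± 0.15 (SE, adjusted p = 0.920 by limma).

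The trunk genes hoxb7a, hoxb9a and hoxb10a had wider SEs, which rest on the spread within all 5 groups. For hoxb7a the SD was 0.574 FPKM at ifosfamide 100 µg/L and 0.651 FPKM in ERM. It was 4.82 FPKM at citalopram 1000 µg/L and 1.97 FPKM at ifosfamide 1 µg/L. For hoxb9a and hoxb10a, too, the SD was larger at citalopram 1000 µg/L and ifosfamide 1 µg/L than in the 2 compared groups. The hoxb7a libraries had 2.71, 2.85, 3.93 and 3.52 FPKM, below the 4.28 to 5.46 FPKM of ERM, and its change was -0.47 ± 0.31 (SE). For hoxb9a the range was 4.06 to 6.04 FPKM against 6.25 to 7.93 FPKM in ERM. For hoxb10a it was 5.05 to 6.22 FPKM against 6.61 to 8.53 FPKM. Both changed by -0.37, with SEs of 0.22 and 0.23. The values of hoxb8a, 7.58 to 9.96 FPKM, overlapped ERM, and its change was -0.34 ± 0.17 (SE, adjusted p = 0.920 by limma). The positive changes closest to the threshold were 0.20 for hoxc13a, 0.19 for hoxa13a and 0.18 for hoxc1a.

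At both ifosfamide doses most Hox genes had negative changes. At 1 µg/L these were 30 of 38 (78.9%) with a median of -0.18, and at 100 µg/L 31 of 38 (81.6%) with a median of -0.18. Over all tested gene models 51.1% and 51.6% were negative, with medians of -0.0069 and -0.0090. Both doses were compared with the same ERM libraries, so these counts are not independent. The 38 genes were also measured in the same libraries, so the genes within a count are not independent either. The median deviation of a library's Hox genes from their group means had an SD of 0.14 over libraries on the log2 scale. At positions 5 to 8 the counts were 9 of 9 at each dose, and leaving out single libraries gave 7 to 9 of 9 at 1 µg/L and 8 to 9 of 9 at 100 µg/L. Without library B of ifosfamide 1 µg/L the Hox median at that dose was -0.09. At positions 1 to 4 they were 8 of 11 at each dose, and at positions 9 to 13 they were 13 and 14 of 18. By cluster the lowest median among those with more than 1 tested gene was that of hoxba, at -0.30 for 1 µg/L and -0.29 for 100 µg/L. The length slope defined above was -0.028 to 0.012 in ERM, -0.00056 to 0.064 at 1 µg/L and -0.0056 to 0.051 at 100 µg/L. The 48 Hox gene models, 10 of them untested, had a median length of 1589.5 bases, against 2377 bases for all tested gene models. With the length slope removed the count of Hox calls stayed at 0, as given below, but the Hox medians were not recomputed. The part of gene length in these medians was thus not tested.

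**Figure D4:**
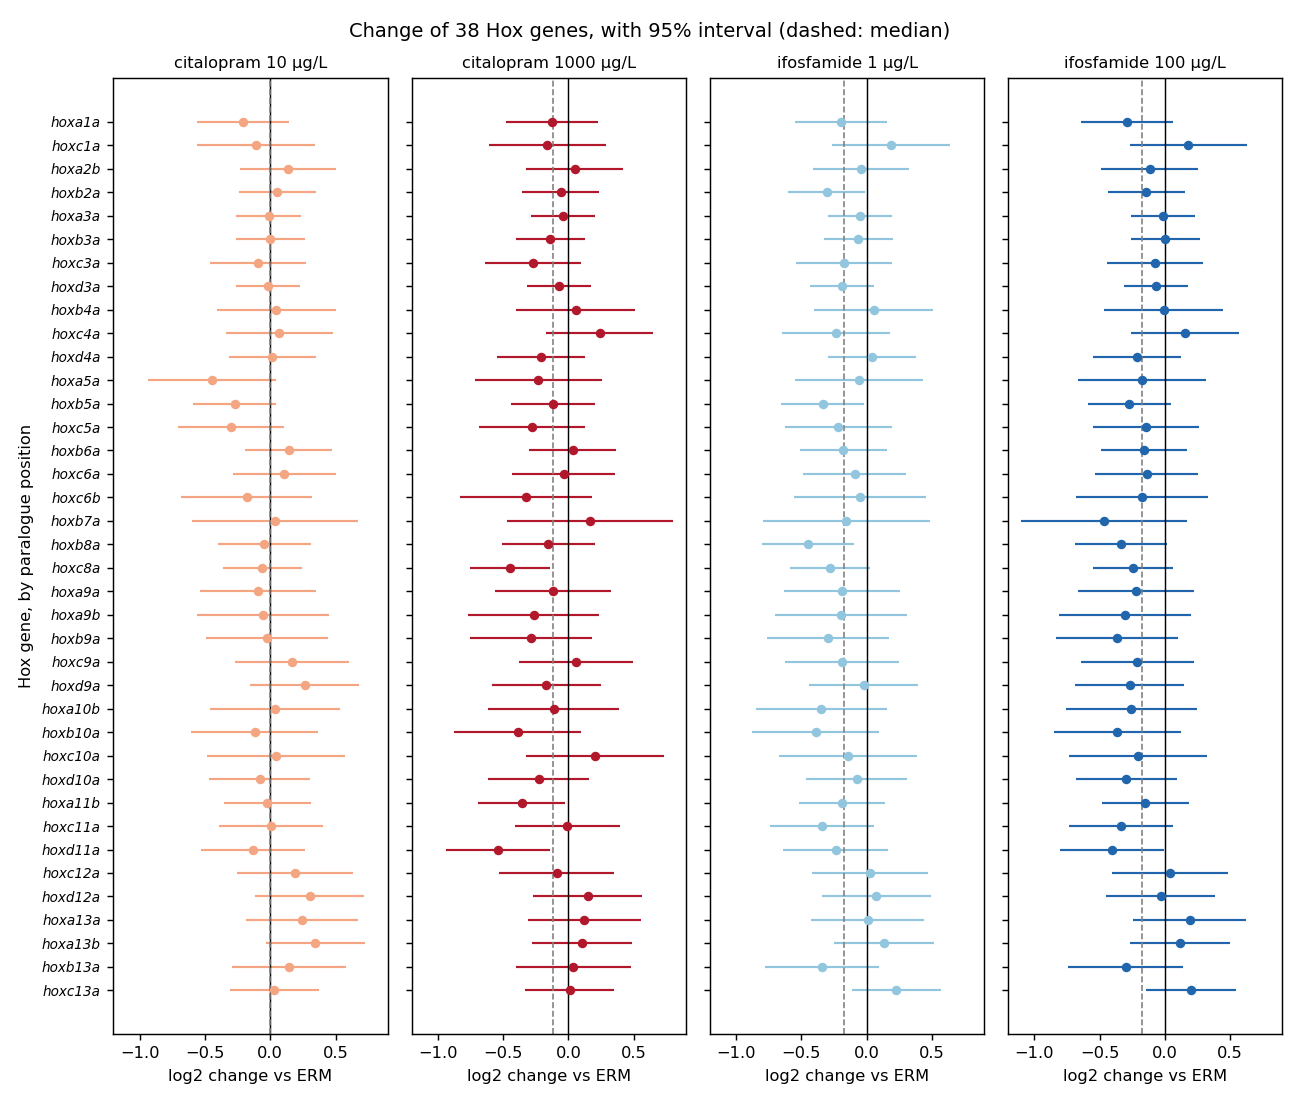
Log2 change against ERM, on log2(FPKM + 1), of the 38 tested Hox genes in 4 drug groups, ordered from position 1 (top) to position 13 (bottom), with 95% intervals and a dashed line at the median. The median line lies at zero for citalopram 10 µg/L, at -0.12 for citalopram 1000 µg/L and at -0.18 for both ifosfamide doses, and nearly all intervals cross zero.

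Summed over all 48 members, the Hox level was 205 ± 12.3 FPKM in ERM, 180 ± 17.3 FPKM at the low and 179 ± 10.1 FPKM at the high dose of ifosfamide (SD, n = 4 each). The citalopram groups had 205 ± 23.4 FPKM at 10 µg/L and 190 ± 38.7 FPKM at 1000 µg/L. At positions 5 to 8 the sum was 62.6 to 71.0 FPKM in ERM, 44.5 to 59.9 FPKM at the low ifosfamide dose and 50.4 to 59.1 FPKM at the high dose, so neither ifosfamide group overlapped ERM on the deposited scale. At positions 1 to 4 and 9 to 13 both groups overlapped ERM. For all members together, ifosfamide 100 µg/L reached 193 FPKM, and ERM began at 192 FPKM. No test was made on the sums, and they were not repeated with total reads as the scale. Those of positions 5 to 8 include hoxb5a and hoxb8a, described above.

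**Figure D5:**
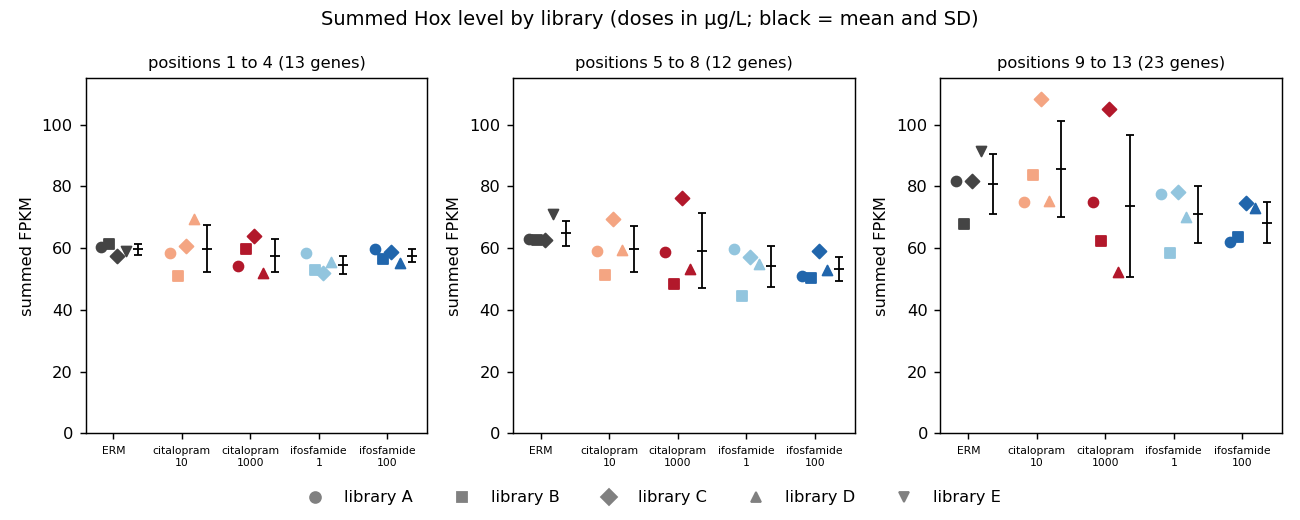
Summed FPKM of Hox genes at positions 1 to 4, 5 to 8 and 9 to 13 in each library, by group, with marker shape for the library letter and black bars for the mean and SD (n = 4). At positions 5 to 8 both ifosfamide groups lie below the 62.6 to 71.0 FPKM of ERM, and at positions 9 to 13 library C of each citalopram group lies above 100 FPKM.

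Markers of other tissues were compared between the ifosfamide groups and ERM as well, and no single marker was called. Muscle markers had a median change of -0.44 at 1 µg/L and -0.34 at 100 µg/L, with 8 and 7 of 10 tested markers negative. Their sums were 15949 to 26163 FPKM and 18181 to 29164 FPKM, against 23898 to 31916 FPKM in ERM. Blood markers, of which all 9 were found and coro1a was at 0, summed to 127 to 218 FPKM at 1 µg/L and 126 to 217 FPKM at 100 µg/L, below the 226 to 385 FPKM of ERM. The globins hbae3 and hbbe1.1, with ERM means of 129 and 183 FPKM, made up most of this sum. They were the 2 markers with negative changes among the 4 tested at each dose. Fin markers, with 9 of 10 found and tbx4 at 0, had negative changes in 6 of 6 tested genes at both doses, and their sums of 65.0 to 125 FPKM and 43.5 to 134 FPKM overlapped the 56.2 to 132 FPKM of ERM.

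Neuron markers leaned the other way, with medians of 0.20 and 0.14, though 3 and 4 of 12 tested markers had negative changes. They summed to 428 to 500 FPKM and 420 to 485 FPKM, against 404 to 473 FPKM in ERM. Gut and swim bladder markers, all 8 found, summed to 131 to 254 FPKM at 1 µg/L, below the 263 to 335 FPKM of ERM, and to 171 to 318 FPKM at 100 µg/L. Most of this sum was fabp1b.1, with means of 229 FPKM in ERM, 141 FPKM at 1 µg/L and 165 FPKM at 100 µg/L. Of 7 tested gut markers, 5 and 4 had negative changes, with medians of -0.08 and -0.10. Kidney markers, all 7 found, summed to 27.7 to 37.9 FPKM and 27.2 to 35.1 FPKM against 34.3 to 36.7 FPKM in ERM. No gene of these lists was called at either dose. The part of tissue composition in the Hox values was not tested.

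The scale between libraries also bears on the ifosfamide values. With total reads as the scale, the median change of all tested gene models was 0.13 at the low dose and 0.10 at the high dose. The Hox medians were then -0.03 and -0.06, so they stayed below the median of all gene models. Negative changes then numbered 22 of 38 Hox genes beside 29.7% of all gene models at 1 µg/L, and 26 of 38 beside 32.9% at 100 µg/L. At positions 5 to 8 they numbered 6 of 9 and 9 of 9.

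Between the ifosfamide doses, 0 Hox genes were called and 0% of all gene models were. At an unadjusted p under 0.05 there were 0 Hox genes and 0.852% of all gene models, with 0.395% lower. Only hoxd4a had groups that did not overlap (2.63% of the Hox genes, beside 0.522% of all gene models with all libraries lower and 0.644% with all higher). This gene, whose mouse relative acts in hindbrain and neck vertebrae, had 3.05, 2.81, 2.97 and 3.63 FPKM at 1 µg/L and 2.67, 1.99, 2.40 and 2.77 FPKM at 100 µg/L. Its log2 change was -0.25 ± 0.16 (SE, adjusted p = 0.99999 by limma). Other changes nearest to the threshold were -0.25 for hoxd9a and -0.22 for hoxd10a, and 0.39 for hoxc4a, 0.16 for hoxb2a and 0.12 for hoxd3a. Negative changes numbered 20 of 38, with a median of -0.01, beside 49.8% of all gene models.

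Genes that act with or upstream of Hox genes had 0 calls in every comparison. Of 14 Hox cofactor genes of the Pbx, Meis and Prep families all 14 were tested. The smallest p belonged to meis2b between the citalopram doses, with overlapping groups and a change of 0.34 (adjusted p = 0.99993 by limma). At citalopram 1000 µg/L it had 25.8 ± 0.312 FPKM, against 20.5 ± 0.938 FPKM in ERM (SD, n = 4 each). That log2 change was 0.32 with adjusted p = 0.575 by limma. These drug libraries, at 25.4 to 26.1 FPKM, all lay above the 19.1 to 21.2 FPKM of ERM. Next was pbx1a at ifosfamide 1 µg/L, 7.38 ± 0.912 against 5.30 ± 1.22 FPKM, a change of 0.42 with adjusted p = 0.787 by limma.

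Of 6 cdx and ParaHox genes, 5 were tested. Levels of cdx1a, a regulator of posterior Hox genes and of the gut, were 6.97 ± 2.33 FPKM at citalopram 1000 µg/L and 4.15 ± 0.877 FPKM in ERM (SD, n = 4 each). These 2 groups overlapped, and the change was 0.60 ± 0.21 (SE, adjusted p = 0.448 by limma). Between the citalopram doses the groups did not overlap, with 2.93 to 5.16 FPKM at 10 µg/L and 5.27 to 10.4 FPKM at 1000 µg/L. That change was 0.64 ± 0.21 (SE, adjusted p = 0.99993 by limma). Next was pdx1, a pancreas gene, with a change of 0.44 between the ifosfamide doses. In ifosfamide 1 µg/L 5 of 5 tested genes of this list had negative changes, with a median of -0.15.

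Of 23 retinoic acid genes 22 were found and 19 tested. The smallest p was for crabp1b, a retinoic acid binding protein of the cytoplasm, with 3.08 ± 0.581 FPKM at ifosfamide 100 µg/L and 5.53 ± 0.795 FPKM in ERM (SD, n = 4 each). All drug libraries, at 2.27 to 3.53 FPKM, were below the 4.81 to 6.63 FPKM of ERM, and the change was -0.68 ± 0.22 (SE, adjusted p = 0.920 by limma). For dhrs3b, a retinaldehyde reductase, the change at ifosfamide 1 µg/L was -0.46 ± 0.19 (SE, adjusted p = 0.787 by limma). The medians of this list against ERM were 0.05 in both citalopram groups, -0.04 at the low and -0.07 at the high ifosfamide dose.

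Polycomb and Trithorax genes, which keep Hox genes silent or active, numbered 33, with 32 found and 29 tested. Their median changes against ERM lay between -0.02 and 0.06. The smallest p values were for bmi1b between the citalopram doses, at 0.35, and suz12a at citalopram 1000 µg/L, at -0.26 (adjusted p = 0.675 by limma). Of 16 hindbrain and axial patterning genes 7 were tested, and gbx2 was at 0 in all libraries. The symbols wnt8a and evx1 have 2 gene models each, of which 1 was at 0 throughout and the other stayed below the filter, at means of 0.0251 FPKM for wnt8a and 0.389 FPKM for evx1. In this list egr2b, which marks segments of the hindbrain, had 3.72 ± 0.382 FPKM at ifosfamide 1 µg/L and 5.13 ± 0.252 FPKM in ERM (SD, n = 4 each), a change of -0.38 ± 0.15 (SE, adjusted p = 0.787 by limma). All 4 drug libraries, at 3.28 to 4.20 FPKM, lay below the 4.82 to 5.40 FPKM of ERM. Next was hnf1bb at citalopram 1000 µg/L, with a change of -0.45 and overlapping groups.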

How the data were processed

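RNA was sequenced from 20 libraries of zebrafish larvae. Per the submitters' processing notes, fastp, HISAT2, featureCounts and DESeq2 were used, with no versions or roles given, on GRCz11. The authors deposited FPKM values per gene model. Multiplied by gene length, 100% of the values above 0 were within 0.01 of whole reads, which gave the depth of each library. Between libraries the scaling equalled median-of-ratios size factors within 1e-06. Computed here, limma 3.58.1 in R 4.3.3 was run on log2(FPKM + 1) with all 20 libraries, a coefficient for each group, a variance trend and 15 residual degrees of freedom. Gene models with a mean of at least 1 FPKM were tested (19723). The scripts were tested on simulated data. Tables and figures were made with pandas 2.3.3 and matplotlib 3.10.9 in Python 3.11.15.

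Named genes are the leading gene of each cluster, the highest and lowest member, pairs with both copies tested, and, per comparison, the 3 with the smallest p in each direction, with the 2 smallest-p genes of each other list. Genes whose groups did not overlap, genes below the filter and the pairs beyond these were added after their values were seen. Members and lists were chosen with earlier results of these data known. Libraries are taken as separate beakers, so p-values measure the spread between beakers, and the unequal spread of citalopram 1000 µg/L enters the shared estimate. No sequence is shown, since none was held. Alternatives were other pseudocounts, filters and scalings, voom on recovered reads, sample weights, a replicate block and fits of the compared groups alone. Others were limma's robust variance estimate, values with the length slope of each library removed, and leaving out each library.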

Additional observations from a re-analysis of the deposited data

Results flagged for a closer look

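In 7 of 190 sets of a tested Hox gene and a group (3.68%), the highest or lowest library was separated from the other 3 by a gap whose share of the group's range passed Dixon's 95% critical value. Chance gives about 1 in 20 such sets. At citalopram 1000 µg/L, library C had 13.64 FPKM of hoxb7a, where the other libraries had 3.63 to 4.32 FPKM, and 4.971 FPKM of hoxc10a, where they had 1.36 to 1.58 FPKM. That library also had the fewest gene models above 0 and the highest sum of muscle markers.

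Library E of ERM had 7.929 FPKM of hoxb9a, above the 6.25 to 6.46 FPKM of the others, and library B of ERM had 5.885 FPKM of hoxc3a, below 6.41 to 6.51 FPKM. In hoxc8a, library B of ifosfamide 1 µg/L was low at 4.393 FPKM (others 6.54 to 6.91 FPKM), and library C of ifosfamide 100 µg/L was high at 7.824 FPKM (others 5.63 to 5.83 FPKM). Library D of citalopram 10 µg/L was high in hoxd3a at 12.4 FPKM (others 10.4 to 10.7 FPKM).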

How the results depend on the processing

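Counts of Hox calls came from 169 combinations of an alternative setting with a comparison or the F-test. Of these, 3 had any Hox call, under 2 settings. Default array weights, whose fitting stopped before it converged, put a weight of 15.7 on citalopram 1000 µg/L library A. With them 7 of 38 Hox genes were called at citalopram 1000 µg/L against ERM, beside 3879 of 19723 gene models. In the F-test 9 of 38 were called, beside 9153 of 19723. With weights fitted gene by gene, chosen after seeing the data, 3 of 38 were called at ifosfamide 1 µg/L, beside 2033 of 19723. These were hoxb5a at -0.37, hoxb8a at -0.38 and hoxb10a at -0.38. In none of these 3 combinations was the Hox share above that of all gene models. The cause of these calls was not tested. With each library left out in turn, the count of Hox calls was 0 in every comparison. The same held with the length slope of each library removed. With a replicate block on the library letter the count was 0 in every comparison. Same-letter correlations of deviations ran from -0.435 to 0.424 (median 0.0205), and different-letter ones from -0.606 to 0.589 (median -0.00407). No pairing by letter was seen, but with 4 libraries in each group these values cannot settle whether the letters pair libraries. The block result thus says nothing of pairing.

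The directions of hoxc10a and hoxd12a depended on citalopram 1000 µg/L library C. The change of hoxc10a at that dose, 0.20, became -0.1672 with array weights, -0.15328 with weights gene by gene and -0.11238 without that library, with a leave-one-out range of -0.11238 to 0.33329. For hoxd12a, 0.15 became -0.049568 without it, in a range of -0.049568 to 0.27673. Leaving out each library gave Hox medians of -0.19 to -0.02 at citalopram 1000 µg/L, -0.21 to -0.09 at ifosfamide 1 µg/L and -0.23 to -0.15 at 100 µg/L. Over all gene models, calls at citalopram 1000 µg/L against ERM (6) ran from 0 to 40 with libraries left out, with 40 when its library D was, and were 0 with the replicate block and 167 with weights gene by gene. Those weights called 860 at ifosfamide 100 µg/L and 2149 in the F-test, and default weights 1009 between the citalopram doses, where the equal-weight model called 0. At citalopram 10 µg/L (2) the count ran from 0 to 6 over the alternatives. A tested Hox value rested on a median of 84 reads. Several changes had 95% intervals that leave out 0, and none passed the p adjusted over all tested gene models in the equal-weight model.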
